A study of Mus musculus with 5 samples.

Results

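The genes described here are 10 members of the JAK-STAT pathway of cytokine signalling: the kinase gene Jak2, the transcription factor genes Stat3, Stat4, Stat5a, Stat5b and Stat6, and the inhibitor genes Socs1, Socs2, Socs3 and Cish. They were taken by symbol, with no threshold on their values, from the 18051 genes of a read count table, and all 10 passed the filter on low counts that left 12046 genes for testing. The table holds 5 libraries of dendritic cells sorted from the thymus of C57BL/6J mice of 6 to 8 weeks, of which 2 came from untreated mice and 3 from mice given total body irradiation (TBI), taken on day 4. Thymi were digested and pooled, and cells bearing CD45, MHC class II and CD11c were sorted. No group carries a transgene or deletion, per the labels. The radiation dose is not given in the sources used here, and a treatment note on the samples names another day than the titles and treatment tags, whose day 4 was used. Whether replicates are separate pools of mice is not given in the labels, and p-values measure only the spread between these libraries, which may be technical.

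Cytokine receptors without kinase activity of their own hold Janus kinases such as JAK2. Binding of a cytokine activates the kinase, which phosphorylates the receptor and then STAT proteins, and these pair, enter the nucleus and bind DNA at sites of the form TTCNNNGAA. Among the genes that STATs switch on are those of the SOCS proteins and CIS, the product of Cish, which bind the receptor or the kinase and shut the signal down. In dendritic cells and macrophages STAT3 acts below the receptors for IL-6 and IL-10, STAT5 below the receptor for GM-CSF, STAT6 below those for IL-4 and IL-13, and STAT4 below those for IL-12 and type I interferon.

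Of the 9 members with a promoter window in the RefSeq table of GRCm38.p6, Socs3 and Cish were those whose window held the letters TTCNNNGAA, and both rose after TBI. Stat4, which also rose, had no match in its windows, so a match did not go with every rise. Socs2 had no window in the table, so among inhibitor genes Socs1 is the one whose window held no match. The windows are shown because the site is the one that STAT proteins bind. Each runs from 250 bases before an annotated start to 50 bases from it, 5′ to 3′ on the gene's own strand, with the matches in capitals. The Socs3 window is chr11:117969317-117969616 on the minus strand and the Cish window is chr9:107296409-107296708 on the plus strand.
Socs3: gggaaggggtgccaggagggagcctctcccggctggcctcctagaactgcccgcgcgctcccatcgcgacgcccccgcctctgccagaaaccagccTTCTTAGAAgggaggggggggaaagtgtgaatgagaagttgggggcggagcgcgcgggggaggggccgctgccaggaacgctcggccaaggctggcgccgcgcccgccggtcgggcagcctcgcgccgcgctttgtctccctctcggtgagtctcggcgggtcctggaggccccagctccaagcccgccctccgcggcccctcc
Cish: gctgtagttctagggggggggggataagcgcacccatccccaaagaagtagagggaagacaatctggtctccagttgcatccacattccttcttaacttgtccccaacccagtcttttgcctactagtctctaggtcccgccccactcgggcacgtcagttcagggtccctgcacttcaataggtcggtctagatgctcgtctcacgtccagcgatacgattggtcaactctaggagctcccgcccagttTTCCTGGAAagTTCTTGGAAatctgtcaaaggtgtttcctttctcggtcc
The Socs3 match, TTCTTAGAA, begins 154 bases before the annotated start. The Cish window holds 2 matches, TTCCTGGAA at the start base itself and TTCTTGGAA beginning 11 bases after it. These starts are those of RefSeq. Both windows lie inside the gene spans given below, which come from another annotation and begin further upstream. The motif reads the same on both strands. It was present in 2726 of 32851 promoter windows of this length (8.30%), and 150 windows (0.457%) held 2 or more matches. The wider form, with 4 bases in place of 3 between TTC and GAA, which STAT6 also binds, was in 0 of the 12 windows of the members and in 6.95% of all windows. A match describes letters in a window and does not show that a protein binds there.

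Total counts ran from 7227000 to 8428589 per library. A principal component with 72.7% of the variance lay between untreated and TBI libraries, and the next, with 14.9%, set TBI replicate 1 apart from the other TBI libraries. Within the TBI group, replicate 1 had fewer reads for genes with long exons: its log2 CPM (CPM, the usual per-million scaling of read counts, here with library totals scaled by edgeR's TMM factors) minus the mean of replicates 2 and 3 had a median of 0.31 in the quintile of genes with the shortest exons and -0.25 in that with the longest. Medians of the TBI minus untreated log2 fold change over the same quintiles ran from 0.24 to -0.22. Markers of the sorted cells were present in each library, though 4 of 5 core dendritic cell genes fell. The integrin gene Itgax (CD11c) had 312 ± 3.49 and 203 ± 43.0 CPM (-0.62 ± 0.18, adjusted p = 0.0417), and the MHC class II gene H2-Ab1 stood between 9592 and 18046 CPM (-0.60 ± 0.16, adjusted p = 0.0268). Without TBI replicate 2 neither passed (adjusted p = 0.0909 and 0.106), and 2 of the core genes fell. Neither call held without untreated replicate 1 or 2, where Itgax had -0.61 and -0.63, and H2-Ab1 had -0.60 each time. The dendritic cell growth factor receptor Flt3 fell from 328 ± 21.8 to 36.9 ± 4.01 CPM (SD, n = 2 and n = 3).

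Between TBI and untreated libraries, Socs3, Cish and Stat4 rose, Jak2 and Socs1 fell, and Stat3, Stat5a, Stat5b, Stat6 and Socs2 did not pass the test. The test was edgeR's quasi-likelihood F-test with Benjamini-Hochberg adjustment over all 12046 genes at 0.05. In all genes tested 23.1% passed, 13.3% higher and 9.79% lower, so that 5 of 10 members (50%) stands beside a background of 23.1%. The groups did not overlap for 8 of the 10 members, 4 higher and 4 lower, where 56.1% of all tested genes did not overlap. Past the threshold and at least 2-fold apart were 2 members, Socs3 and Stat4, where 15.4% of all tested genes met both. The median log2 fold change was 0.23 over the members and -0.01 over all tested genes.

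**Figure D1:**
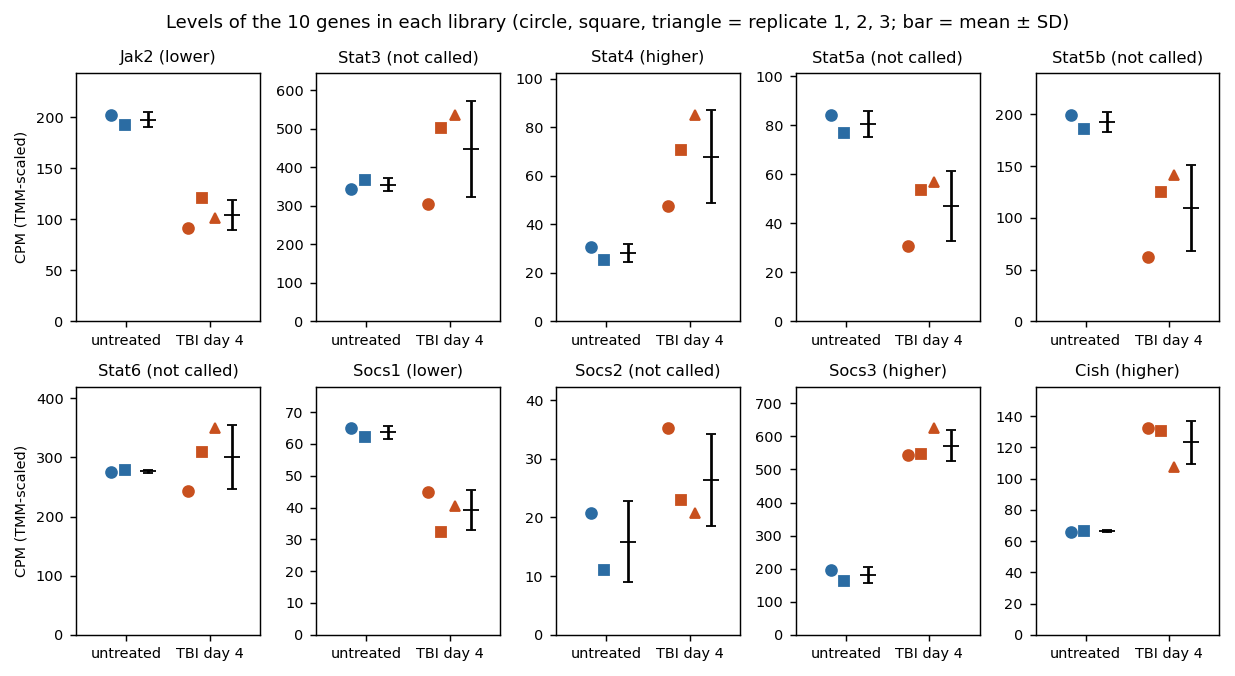
Each panel plots 1 gene, with TMM-scaled CPM on the vertical axis from 0, 2 untreated libraries in blue and 3 TBI libraries in orange, and the mean ± SD as a black bar. Socs3 lies at 163 to 197 CPM in untreated and 543 to 626 CPM in TBI libraries, while in the 5 Stat panels the circle of TBI replicate 1 is the lowest TBI point.

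Jak2 encodes the Janus kinase that serves, among others, the receptors for GM-CSF, IL-12 and interferon gamma. It lies on chromosome 19, 29251828 to 29313080 (GRCm38, plus strand). Its level was 203 and 192 CPM in the untreated libraries and 91.6, 121 and 102 CPM in the TBI libraries. The groups did not overlap, and the gap between them was wider than the spread within either. Jak2 fell by 0.92 ± 0.15 (SE) on the log2 scale, a 1.89-fold lower level (adjusted p = 0.00309). It remained past the threshold when any 1 library was left out, with adjusted p-values from 6.25e-04 to 0.0447. In the same libraries 7 of 8 markers of type 1 dendritic cells fell, with a sum of 3444 and 3580 CPM in untreated and 683 to 868 CPM in TBI libraries. All 8 markers of plasmacytoid dendritic cells fell too, from 3342 and 3244 CPM to between 434 and 539 CPM. The part of these cells in the falls of Jak2 and Socs1 was not tested. The genes whose profile over the 5 libraries lay closest to that of Jak2, out of 7482 candidates, were Snx18, Cpne2 and Rnf19b, with root mean square differences of 0.04, 0.06 and 0.06 in centred log2 CPM.

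Of the other Janus kinases, Tyk2 fell from 174 ± 0.654 to 114 ± 22.9 CPM (log2 fold change -0.61 ± 0.18, adjusted p = 0.0393) and Jak3, the kinase of the common gamma chain, rose from 42.5 ± 7.04 to 76.8 ± 17.2 CPM (0.85 ± 0.23, adjusted p = 0.0292). Jak1 had 416 ± 17.4 and 525 ± 94.4 CPM and did not pass (adjusted p = 0.189). Neither the Tyk2 nor the Jak3 call held when either untreated library or TBI replicate 2 was left out, and Jak3 was also lost without TBI replicate 3 and with library size alone (0.63, adjusted p = 0.0883).

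Stat4 was the STAT member that rose. STAT4 carries signals of IL-12 and of type I interferon, and is well known from natural killer and T cells as well as from dendritic cells. The gene lies on chromosome 1, 51987148 to 52107189 (plus strand). Its level was 30.7 and 25.4 CPM in untreated libraries and 47.4, 70.9 and 85.3 CPM in TBI libraries. Every TBI library was above both untreated libraries, and TBI replicate 1 was the nearest to them. The log2 fold change was 1.27 ± 0.27, or 2.42-fold (adjusted p = 0.0100). Without untreated replicate 2 the difference did not pass (1.14, adjusted p = 0.0981). In the same libraries 9 of 10 markers of natural killer and innate lymphoid cells rose, with a summed level of 154 and 157 CPM in untreated and 1387 to 1791 CPM in TBI libraries. Ncr1, which is on that list, had 0.868 ± 0.692 and 35.1 ± 13.7 CPM. The part of such cells in the Stat4 difference was not tested. In bulk RNA of sorted cells, a change in the share of a cell type and a change in RNA per cell cannot be told apart, for Stat4 or any gene below. Another annotated transcript gene, Gm28177, which has no row of its own in the count table, overlaps 26.7% of the exon length of Stat4 on the same strand, and reads there could belong to either.

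Stat5a and Stat5b, which encode near-identical factors below the GM-CSF receptor, were lower in all TBI libraries than in both untreated ones, and neither passed the test. They lie beside each other on chromosome 11, Stat5b at 100780731 to 100850724 (minus strand) and Stat5a at 100859351 to 100885169 (plus strand), with their starts facing each other across 8626 bases. Stat5b had 200 and 186 CPM in untreated libraries and 62.4, 125 and 141 CPM in TBI libraries. Its log2 fold change was -0.81 ± 0.29 (95% interval -1.48 to -0.14, adjusted p = 0.0820). Stat5a had 84.4 and 77.0 CPM in untreated libraries and 30.9, 53.7 and 56.9 CPM in TBI libraries. Its log2 fold change was -0.77 ± 0.25 (-1.35 to -0.19, adjusted p = 0.0607). In both genes TBI replicate 1 was far below the other TBI libraries, which widened the spread of the group.

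Without TBI replicate 1 the Stat5 differences were smaller and passed, at -0.53 for Stat5b (adjusted p = 0.00438) and -0.55 for Stat5a (adjusted p = 0.00730). Both paralogs also passed with the DESeq2 Wald test, at adjusted p-values of 0.0329 and 0.0274. Per kilobase of exon, Stat5b stood above Stat5a by a ratio of 3.05 and 3.11 in untreated libraries and 2.60, 3.004 and 3.19 in TBI libraries. That ratio overlapped between the groups. Stretches of 50 bases shared between their transcripts made up 10.98% of those of Stat5b and 8.52% of those of Stat5a, so a small part of their reads can be assigned to either.

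Stat3 and Stat6 were the most abundant STAT members, and neither passed the test. Stat3, the factor of IL-6 and IL-10 signalling, lies on chromosome 11, 100885098 to 100939540 (minus strand), tail to tail with Stat5a, with 72 bases common to both genes. It had 343 and 367 CPM in untreated libraries and 306, 502 and 537 CPM in TBI libraries. TBI replicate 1 was below both untreated libraries, and replicates 2 and 3 were above them. The log2 fold change was 0.34 ± 0.23 (-0.18 to 0.86, adjusted p = 0.324), and without TBI replicate 1 it was 0.55 and passed (adjusted p = 0.00209). Stat6, the factor of IL-4 and IL-13 signalling, lies on chromosome 10, 127642986 to 127660957 (plus strand). Its level was 275 and 279 CPM in untreated libraries and 243, 309 and 350 CPM in TBI libraries. The TBI libraries lay on both sides of the untreated ones, and the log2 fold change of 0.12 ± 0.17 (-0.26 to 0.50, adjusted p = 0.651) had no settled sign across scalings, at -0.10 with library size alone.

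The low values of TBI replicate 1 ran through all 5 STAT members. Its log2 CPM minus the mean of the other TBI libraries was -1.08 for Stat5b, -0.83 for Stat5a, -0.76 for Stat3, -0.71 for Stat4 and -0.43 for Stat6. Among all tested genes, 5.90% had a difference as low as that of Stat5b and 23.0% one as low as that of Stat6. Jak2 had -0.27, Socs3 -0.11, Cish 0.16, Socs1 0.30 and Socs2 0.68. By exon length, Stat3 and Socs2 lie in quintile 5, the longest, Stat5a, Stat5b and Cish in quintile 4, Stat4, Stat6 and Jak2 in quintile 3, and Socs1 and Socs3 in quintile 2. With each library's trend with exon length removed, an alternative chosen after the data were seen, Stat3 (0.51, adjusted p = 0.0494) and Stat5a (-0.66, adjusted p = 0.0404) passed and Stat5b did not (-0.77, adjusted p = 0.0504).

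**Figure D2:**
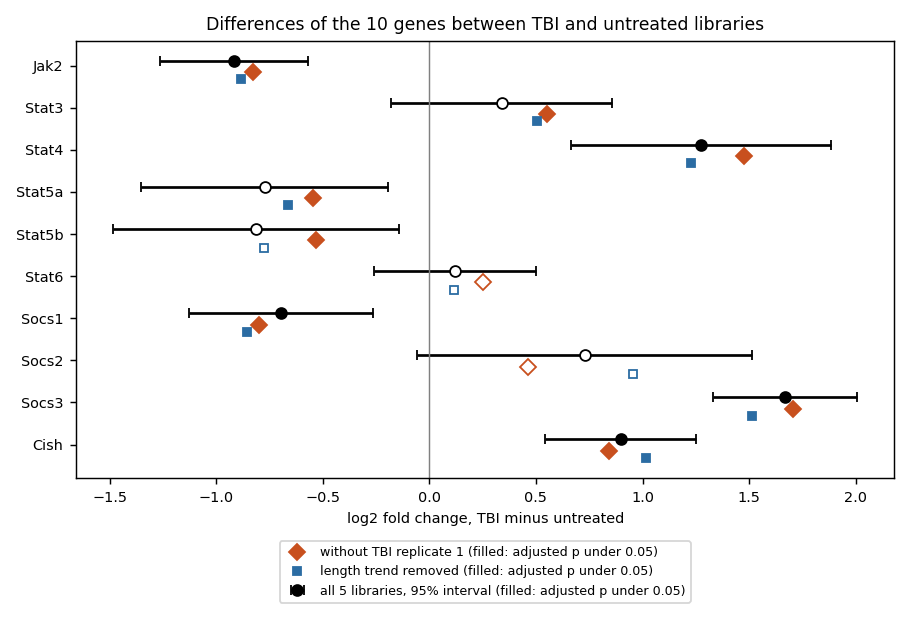
Log2 fold changes of TBI minus untreated are drawn for each gene, with all 5 libraries and their 95% interval in black, without TBI replicate 1 as orange diamonds and with the length trend removed as blue squares; filled symbols have an adjusted p under 0.05. Socs3, Cish, Stat4, Jak2 and Socs1 are filled in all 3 settings, and Stat3, Stat5a and Stat5b are open with all libraries and filled without TBI replicate 1.

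Stat2, which transmits signals of type I interferon and is not among the 10 members, fell from 72.5 ± 9.10 to 39.9 ± 11.9 CPM (-0.86 ± 0.26, adjusted p = 0.0435).

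Socs3 showed the largest difference of the 10 members. SOCS3 blocks signalling through the shared IL-6 receptor chain gp130 and through the G-CSF receptor, and its gene is a direct target of STAT3. It lies on chromosome 11, 117966079 to 117970047 (minus strand). Its level was 197 and 163 CPM in untreated libraries and 543, 548 and 626 CPM in TBI libraries. The lowest TBI library was well above the highest untreated one. The log2 fold change was 1.67 ± 0.15, or 3.18-fold (adjusted p = 1.09e-04), and it ranged from 1.54 to 1.81 as each library was left out, passing each time. The nearest profiles among 7482 candidate genes were those of Lamp1, a lysosomal membrane protein gene, Tpp1, which encodes a lysosomal peptidase, and Slc41a3, with root mean square differences of 0.08, 0.09 and 0.10 in centred log2 CPM. Lamp1 went from 502 ± 25.1 to 1522 ± 50.3 CPM.

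Cish encodes CIS, an inhibitor that is induced by STAT5 and acts on receptors that use it. The gene lies on chromosome 9, 107296026 to 107302784 (plus strand). Its level was 65.8 and 66.8 CPM in untreated libraries and 133, 130 and 108 CPM in TBI libraries. The untreated libraries were close to each other and all TBI libraries lay above them. The log2 fold change was 0.90 ± 0.15, or 1.86-fold (adjusted p = 0.00385). Leaving out either untreated library left the size at 0.89 and 0.91 and ended the call, with adjusted p-values of 0.0636 and 0.0586. Annotated antisense and pseudogene transcripts overlap parts of Cish, and without a stated strand setting their reads cannot be told apart from its own.

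Socs1 went the other way from Socs3 and Cish. SOCS1 inhibits Janus kinases directly and is best known as a brake on interferon gamma signalling. The gene lies on chromosome 16, 10782240 to 10785536 (minus strand). Its level was 65.0 and 62.2 CPM in untreated libraries and 44.8, 32.4 and 40.6 CPM in TBI libraries. All TBI libraries were below both untreated ones. Socs1 fell by 0.70 ± 0.19 on the log2 scale, 1.62-fold lower (adjusted p = 0.0296). The call was lost without either untreated library (adjusted p = 0.233 and 0.186), without TBI replicate 2 (0.0804) and without TBI replicate 3 (0.0617). The type 1 and plasmacytoid dendritic cell markers given beside Jak2 fell between the same groups. Within the TBI group Socs1 was highest in replicate 1 and lowest in replicate 2. The type 1 sums in these 2 libraries were 683 and 868 CPM, and the plasmacytoid sums 434 and 539 CPM. Their part in the Socs1 values was not tested.

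Socs2, an inhibitor of growth hormone signalling that dendritic cells also express on maturation, was the least abundant member. It lies on chromosome 10, 95385362 to 95417180 (minus strand). Its level was 20.7 and 10.999 CPM in untreated libraries and 35.3, 23.0 and 20.8 CPM in TBI libraries. The lowest TBI library barely exceeded the higher untreated one, and the untreated libraries differed by almost as much as the group means. The log2 fold change was 0.73 ± 0.34 (-0.06 to 1.52, adjusted p = 0.167), with 1.26 without untreated replicate 1 and 0.34 without untreated replicate 2. Markers of CCR7-positive mature dendritic cells also differed between the untreated libraries, with a sum of 1833 CPM in replicate 1 and 1286 in replicate 2, and stood at 1609 to 1917 CPM in TBI libraries. Of these 12 markers 3 rose and 5 fell, and their part in the Socs2 values was not tested.

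Per kilobase of exon, which allows levels of different genes to be compared, the order of the members changed at the top. The exon length is the union over all annotated transcripts of a gene, so a gene with long unused exons is set too low. In untreated libraries Stat6 (62.9 ± 0.593 CPM per kilobase) and Socs3 (62.2 ± 8.25) led, and they did not differ beyond their spread. Jak2 (39.3 ± 1.42), Stat3 (37.2 ± 1.76) and Stat5b (34.8 ± 1.76) followed closely together, then Socs1 (21.9 ± 0.689), Stat5a (11.3 ± 0.735), Cish (10.3 ± 0.108), Stat4 (7.25 ± 0.971) and Socs2 (1.66 ± 0.722). In TBI libraries Socs3 (198 ± 16.1) stood above every other member in each library. Stat6 (68.3 ± 12.3) and Stat3 (47.1 ± 13.1) came next with overlapping ranges, then Jak2 (20.8 ± 2.93), Stat5b (19.8 ± 7.52), Cish (19.2 ± 2.15), Stat4 (17.5 ± 4.94) and Socs1 (13.5 ± 2.17), whose ranges overlapped with those of their neighbours. Stat5a (6.61 ± 1.99) and Socs2 (2.77 ± 0.818) were lowest.

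The balance between inhibitor genes shifted in all libraries of a group. Socs3 per kilobase exceeded Socs1 by a ratio of 3.04 and 2.64 in untreated libraries and of 12.2, 17.01 and 15.5 in TBI libraries. The ratio of Socs3 to Stat3 was 1.89 and 1.47 against 5.84, 3.60 and 3.84. Cish stood at 0.284 and 0.310 of the level of Stat5b in untreated libraries and at 1.83, 0.898 and 0.658 in TBI libraries, where replicate 1 was the highest. These ratios are descriptions of the values above and add no test.

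**Figure D3:**
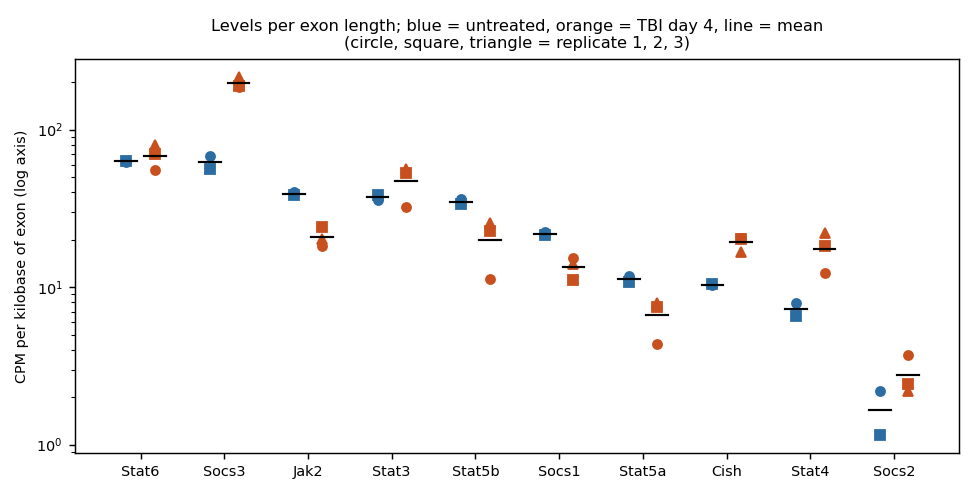
CPM per kilobase of exon are drawn on a log axis for each gene, ordered by the untreated mean, with untreated libraries in blue, TBI libraries in orange and the mean as a line. Socs3 and Stat6 share the top in untreated libraries at 62.2 and 62.9, and Socs3 alone leads in TBI libraries at 198.

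Most of the tested genes of the IL-6 family, whose receptors signal through STAT3, were higher after TBI. Of 11 tested ligand and receptor genes of this family 7 rose, 0 fell and 4 were not called, with a median log2 difference of 1.36. Osmr, among those that rose, had 0 counts in both untreated libraries and passed the low-count filter through TBI libraries alone. Il6, the ligand itself, had 12.1 and 10.5 CPM in untreated libraries and 141, 138 and 104 CPM in TBI libraries (3.50 ± 0.22). Osm, which encodes oncostatin M, went from 32.5 ± 7.002 to 187 ± 38.8 CPM (2.52 ± 0.24). Among receptors Il27ra went from 27.3 ± 1.48 to 101.2 ± 6.15 CPM (1.89 ± 0.16) and Il6ra from 28.9 ± 3.92 to 74.4 ± 18.4 CPM (1.36 ± 0.25). The shared chain gp130, Il6st, had 123 ± 4.08 and 67.2 ± 26.4 CPM and did not pass (-0.87 ± 0.30, adjusted p = 0.0739). The higher count was 4 without untreated replicate 1 and 3 without untreated replicate 2. The lower count was 1 without TBI replicate 1, with that and the length trend removed, with library size alone, with the DESeq2 Wald test and with limma-voom. Of 5 tested IL-10 family genes 2 rose and 3 did not pass. Il10 went from 0.745 ± 0.517 to 8.48 ± 3.50 CPM (3.48 ± 0.63), and the receptor chain Il10rb from 106 ± 5.51 to 201 ± 27.8 CPM (0.92 ± 0.16). Of these 5 genes, Il10, Il22 and Il20rb passed the low-count filter through TBI libraries alone, which tilts the count upward. The IL-10 family higher count was 1 without untreated replicate 2.

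Of the 14 tested ligand and receptor genes of the common gamma chain, IL-4, IL-13 and TSLP, 7 rose, 1 fell and 6 were not called. Their median was 0.89. Tslp, among those that rose, passed the low-count filter through TBI libraries alone. The IL-2 receptor beta chain Il2rb, which is also on the natural killer list, went from 26.8 ± 1.08 to 417 ± 112 CPM (3.96 ± 0.25), and Il2ra from 12.4 ± 0.229 to 87.7 ± 9.19 CPM (2.82 ± 0.19). Il4ra, the receptor chain above STAT6, had 213 and 223 CPM in untreated libraries and 368, 505 and 500 CPM in TBI libraries (1.07 ± 0.17, adjusted p = 0.00247). Il13ra1, its partner for IL-13, moved in the other direction, from 133 ± 0.942 to 75.4 ± 4.53 CPM (-0.81 ± 0.13), and was the gene that fell, a call lost without either untreated library.

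Of the receptor chains for GM-CSF, which acts through JAK2 and STAT5, Csf2ra rose. It encodes the ligand-binding chain and had 144 and 144 CPM in untreated libraries and 340, 324 and 322 CPM in TBI libraries (1.19 ± 0.12). Csf2rb, the common beta chain, had 284 ± 2.92 and 214 ± 41.2 CPM and did not pass (-0.41 ± 0.17, adjusted p = 0.128). Csf2rb2, the beta chain paralog of the mouse that serves IL-3, fell from 93.6 ± 5.46 to 29.3 ± 1.04 CPM (-1.68 ± 0.16). The beta chain genes are near-identical and the counting could split their reads. The ligand gene Csf2 was low, at 0.251 ± 0.181 and 10.9 ± 3.53 CPM (5.36 ± 0.63), and passed the low-count filter through TBI libraries alone. In this group of 8 tested genes 4 rose, 1 fell and 3 did not pass, and the higher count was 2 without either untreated library, while 2 fell without TBI replicate 1.

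Genes of the IL-12 pathway, which signals through JAK2, TYK2 and STAT4, did not rise with Stat4. Il12b, the subunit common to IL-12 and IL-23, had 118 and 51.5 CPM in untreated libraries and 3.90, 8.36 and 7.44 CPM in TBI libraries (-3.68 ± 0.41), and Il12a went from 4.87 ± 0.0934 to 1.07 ± 0.0752 CPM (-2.17 ± 0.53). Of 5 tested genes 0 rose, 2 fell and 3 did not pass, among them the receptor chain Il12rb2, at 40.0 ± 5.54 and 37.3 ± 12.7 CPM. The Il12a call was lost without either untreated library. Without TBI replicate 3 a gene of this group was called higher. Of 6 tested interferon genes 1 rose and 1 fell, and without TBI replicate 1 these numbers were 2 and 2. Ifngr1, the ligand-binding chain for interferon gamma, went from 551 ± 23.6 to 873 ± 51.3 CPM (0.66 ± 0.12, adjusted p = 0.00473; 0.0799 without untreated replicate 1). Ifnlr1, the receptor chain for interferon lambda, had 68 counts in the untreated libraries together and 1 count in the TBI libraries together, a ratio of 95.4 with a 95% exact counting interval from 16.6 to 3824. Such intervals cover counting error only, since the reads carry no molecular identifiers.

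Of 14 other tested inhibitors of the pathway 4 were called (28.6%), near the 23.1% of all tested genes: 1 rose, 3 fell and 10 were not called; their median was -0.10. Ptpn1, a phosphatase of JAK2 and TYK2, went from 229 ± 0.0259 to 367 ± 29.8 CPM (0.68 ± 0.13). Usp18, an inhibitor of type I interferon receptors, fell from 126 ± 14.0 to 71.1 ± 5.64 CPM (-0.83 ± 0.15), Cbl, a ubiquitin ligase, from 88.6 ± 8.73 to 44.6 ± 12.8 CPM (-0.99 ± 0.24), and Ptpn6, which encodes SHP-1, from 588 ± 17.7 to 439 ± 15.02 CPM (-0.42 ± 0.11). Without untreated replicate 1, 0 rose and 0 fell, and without untreated replicate 2, 0 rose and 1 fell. Without TBI replicate 2, 1 fell, without TBI replicate 1, 2 rose, and with library size alone 5 fell.

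**Figure D4:**
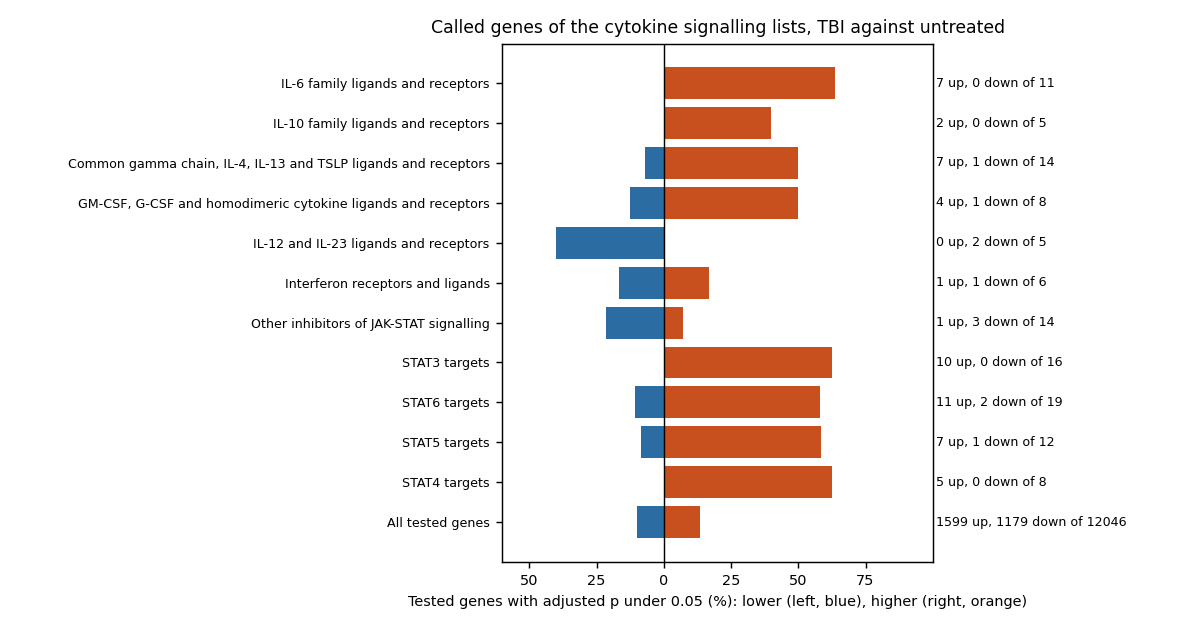
For each list of cytokine signalling genes the bars give the percentage of tested genes with an adjusted p under 0.05, higher in TBI to the right in orange and lower to the left in blue, with all tested genes at the bottom. Among STAT3 targets 10 of 16 were higher and 0 lower, against 1 higher and 3 lower of 14 other inhibitors of the pathway.

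Known target genes of the STAT factors were read in the same way. The lists were written from textbook knowledge, but with earlier results of these data known. Several of their genes answer to more than 1 STAT and to other factors. Of 16 STAT3 targets 10 rose, 0 fell and 6 were not called, with a median log2 difference of 1.02. Of the 10, Saa3 and Timp1 passed the low-count filter through TBI libraries alone. Lrg1, with 5 and 15 counts in untreated libraries, also depended on TBI libraries to pass it. The acute-phase gene Lrg1 went from 1.26 ± 0.905 to 121 ± 57.5 CPM (6.58 ± 0.57), Junb, an AP-1 subunit, from 756 ± 21.3 to 1778 ± 201 CPM (1.23 ± 0.13) and the adhesion molecule gene Icam1 from 320 ± 20.8 to 836 ± 34.3 CPM (1.39 ± 0.12). Of 12 STAT5 targets, not counting Cish and the SOCS members, 7 rose, 1 fell and 4 were not called; their median was 0.61. Ccnd2, a cyclin of the early cell cycle, went from 88.8 ± 3.90 to 470 ± 72.2 CPM (2.40 ± 0.17) and Myc from 20.8 ± 3.36 to 63.2 ± 19.8 CPM (1.605 ± 0.30). The STAT5 target count was 4 higher without either untreated library, and STAT5 and STAT3 lists have Pim1 and Bcl6 in common.

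Of 19 STAT6 targets 11 rose, 2 fell and 6 were not called. Their median was 1.13. Among those that rose, Arg1 and Ch25h passed the low-count filter through TBI libraries alone. With the length trend removed and TBI replicate 1 left out, 4 fell. Retnla, which marks alternatively activated macrophages, went from 33.0 ± 4.12 to 5197 ± 1084 CPM (7.30 ± 0.25), the mannose receptor gene Mrc1 from 35.0 ± 2.32 to 505 ± 129 CPM (3.85 ± 0.26), Ccl24 from 3.79 ± 2.67 to 187 ± 37.7 CPM (5.61 ± 0.41) and the lipoxygenase gene Alox15 from 319 ± 8.10 to 1350 ± 123 CPM (2.08 ± 0.13). Macrophages express many of these genes, and 5 of the 19 are also on the dendritic cell marker lists used here. In the same libraries 10 of 10 macrophage markers rose, with a sum of 3253 and 2680 CPM in untreated and 23112 to 25343 CPM in TBI libraries, and the F4/80 gene Adgre1 went from 177 ± 4.74 to 1139 ± 48.3 CPM. The part of macrophages in the values of the targets, or of Socs3 and Cish, was not tested.

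Of 8 STAT4 targets 5 rose, 0 fell and 3 were not called; their median was 1.45. They include Tbx21 (4.12 ± 0.636 to 38.4 ± 9.13 CPM, 3.22 ± 0.30) and the IL-18 receptor chain Il18rap (2.5 ± 0.219 to 21.4 ± 3.32 CPM, 3.09 ± 0.30). Natural killer cells express these genes, and Tbx21 is on the natural killer list given above. Il18r1, also among those that rose, had 18 and 1 counts in untreated libraries and depended on TBI libraries to pass the low-count filter. The STAT4 target count was 3 without TBI replicate 2, 2 without TBI replicate 3 and 3 with library size alone, and it was also smaller without either untreated library. With library size alone 1 fell, as it did with the length trend removed, with or without TBI replicate 1.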

How the data were processed

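RNA of sorted thymic dendritic cells was made into libraries with SMART-Seq v4, which has no molecular identifiers, per the labels. The deposited table gives raw read counts by gene symbol, made with STAR 2.5.2a on mm10 and featureCounts 1.6.0, per the submitters' processing notes. Annotation, strand setting and treatment of multiply mapped reads are not given in the sources used here. The table held 23 date-like symbols, which were not removed, and 0 columns of other samples. At 7227000 to 8428589 counts a library, 1 count is 0.119 to 0.138 CPM before the TMM factors are applied. Here edgeR 4.0.16 (R 4.3.3) was run with TMM, filterByExpr (minimum count 10, total 15), a quasi-likelihood F-test between groups and Benjamini-Hochberg adjustment over 12046 genes at 0.05; functions were tested on simulated data. Standard errors are the log2 fold change over the root of F. Gene models are GENCODE on GRCm38 (mm10). Alternatives used DESeq2 1.42.0 and limma 3.58.1, other scalings and filters, a replicate block, libraries left out and a length trend (11597 genes had a length).

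The members, 13 pathway lists and 14 marker lists were chosen with earlier results of these data known. A gene of a list could pass the low-count filter through high counts in 1 group alone, which tilts list counts and medians toward that group. This was so for Osmr, Il10, Tslp, Csf2, Saa3, Timp1, Arg1 and Ch25h through TBI libraries, among others, and for Ifnlr1 through untreated ones. Lrg1 and Il18r1 also depended on TBI libraries to pass. Results of 2 of the pathway lists are not reported here. Named were all members, at most 4 called genes of a list by p, and the 3 nearest profiles to the member that rose most and the one that fell most. Jak1, Stat2, Il6st, Il13ra1, Csf2rb, Il12rb2, Ncr1, Pim1 and Bcl6 were chosen after their values were seen. Of the marker lists not described with the results, called higher and lower were 4 and 2 of 6 for monocytes, 4 and 0 of 6 for type 2 dendritic cells, 1 and 6 of 10 for T cells, 4 and 0 of 4 for B cells, 2 and 1 of 5 for neutrophils, 4 and 0 of 5 for mesenchymal, 1 and 3 of 4 for endothelial and 0 and 1 of 5 for epithelial cells.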

Additional observations from a re-analysis of the deposited data

How the results depend on the processing

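Each result was recomputed under 15 alternative settings and 2 more chosen after the data were seen, which remove each library's trend with exon length. Socs3 kept its call in all 17, at 1.44 to 1.81, and Jak2 in 16. The lower count over all genes (1179) was 2129 with library size alone, 743 with an added 2-fold rule and 2017 with the length trend removed and TBI replicate 1 left out. The lower count of members (2) was 4 with library size alone, with the DESeq2 Wald test, with the replicate block, and with the length trend removed without TBI replicate 1, and 0 with the 2-fold rule, which ended the calls of Cish (0.90), Jak2 (-0.92) and Socs1 (-0.70). Stat5a passed with upper quartile scaling (-0.82), library size alone (-0.99), DESeq2 (-0.78), limma-voom (-0.81), the length trend removed (-0.66) and that with TBI replicate 1 left out (-0.50). Stat5b passed with library size alone (-1.03), DESeq2 (-0.82) and the length trend removed without TBI replicate 1 (-0.53). Stat3 passed with the length trend removed (0.51) and that without TBI replicate 1 (0.64). Stat6 changed sign with library size alone (-0.10). The cause was not tested.

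Leaving out 1 library at a time, calls over all genes ran from 810 to 2148 higher and 423 to 1780 lower, and among members from 1 to 4 in each direction. Fold changes ran from 0.20 to 0.55 for Stat3, 1.08 to 1.47 for Stat4, -0.92 to -0.55 for Stat5a, -1.03 to -0.53 for Stat5b, 0.00 to 0.25 for Stat6, -0.80 to -0.58 for Socs1, 0.34 to 1.26 for Socs2, 1.54 to 1.81 for Socs3, 0.84 to 0.99 for Cish and -1.03 to -0.83 for Jak2. Where 1 untreated library remains, its spread is taken from the TBI group.

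Groups share replicate numbers 1 and 2 only. Deviations of same-numbered libraries from their group means correlated at -0.0160 and -0.00989 over 12046 genes. With 2 untreated libraries their deviations mirror each other, so these values cannot show whether libraries were handled in pairs. With the number as a block Stat5a (-0.98), Stat5b (-1.12) and Socs2 (0.91) passed and Stat6 changed sign, at -0.014; the block moved no count of all genes by over 1.5 times. It ended the calls of Jak3 (0.69, adjusted p = 0.0735), Il12a (-2.15, adjusted p = 0.0780) and Ptpn6 (-0.45, adjusted p = 0.0611), and with it the lower counts were 1 in the IL-6 family, 1 in the IL-12 group, 2 in the interferon group and 0 among STAT5 targets.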
